A study of Mus musculus with 8 samples.

Results

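The TREM2 foamy macrophage genes are 8 genes of lipid-laden macrophages, namely Trem2, Tyrobp, Gpnmb, Spp1, Fabp5, Lgals3, Cd9 and Atp6v0d2, chosen by name from the 41186 gene names in the deposited table of whole-aorta RNA. All 8 had a locus in the table and all 8 passed the filter on low values. Where a name had more than 1 locus, the one with the largest summed count stood for the gene. The study asked how loss of NPRC, the natriuretic peptide receptor encoded by Npr3, alters atherosclerosis. Poly(A) RNA of the entire aorta was sequenced from mice fed a Western diet for 12 weeks, with 5 libraries titled ApoE-/- (numbered 1 to 5) and 3 titled NPRC-/-ApoE-/- (numbered 1 to 3). All of these mice lacked apolipoprotein E, and the NPRC-/-ApoE-/- mice also carried, in every cell, a CRISPR frameshift in exon 1 of Npr3 and were littermates of the ApoE-/- mice. The frameshift was made in C57BL/6 mice, which were then crossed with ApoE-/- mice. The paper describes groups of equal size for this sequencing. Fewer libraries titled NPRC-/-ApoE-/- were available here than the paper describes, and no reason is given. The sources used here do not give the age of the mice sequenced or tie a library to an animal, so a p-value below measures the spread between libraries.

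A separate genotype entry contradicted the title for 4 of the 8 libraries. The entry read Nprc-/-Apoe-/- for ApoE-/- 4 and ApoE-/- 5 and Apoe-/- for NPRC-/-ApoE-/- 1 and NPRC-/-ApoE-/- 2. Groups were formed by title. The fits were repeated by the entry, and only part of the values by entry is given below. The targeted gene did not settle the labels. Npr3 ranged from 0.62 to 1.69 FPKM over the 5 ApoE-/- libraries by title and at 1.13 to 1.39 FPKM in the 3 titled NPRC-/-ApoE-/-, where FPKM is the deposited number of fragments per kilobase of transcript scaled to library depth. A frameshift need not lower the mRNA. The total count was 62969165 to 86693276 per library. Markers of aortic smooth muscle were present throughout, with a summed level of 1370 to 3040 FPKM over 10 genes.

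Macrophages in the artery wall take up modified lipoproteins and turn into foam cells, which store cholesterol ester in droplets. A large share of these cells carries TREM2, a surface receptor for lipids and lipoproteins that signals through the adaptor TYROBP (DAP12), whose phosphorylated tail recruits the kinase SYK. Cells of this state typically express the other 6 genes too, which encode surface glycoproteins, secreted proteins, a fatty acid carrier and a subunit of the lysosomal proton pump. In bulk RNA of an aorta, fewer such cells and less RNA per cell cannot be told apart.

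Grouped by title, all 8 genes had lower fitted levels in the NPRC-/-ApoE-/- libraries, with log2 fold changes from -1.50 (Spp1) to -0.39 (Cd9) and a median of -1.17. Of all 20506 loci tested, 50.9% had a lower fitted level, and the median was -0.006. Gpnmb, Fabp5 and Atp6v0d2 met the study's criterion, whereas the other 5 did not. This criterion asks for more than 2-fold in either direction together with p under 0.05 before adjustment, here from edgeR's quasi-likelihood test. Of all loci tested, 3.47% met that criterion, and 2.39% did so with a lower level in NPRC-/-ApoE-/-. After Benjamini-Hochberg adjustment over all loci, 0 of the 8 had an adjusted p-value under 0.05 (range 0.31 to 0.59), and the share of all loci that did was 0%. The unadjusted p-value was under 0.05 for 3 of the 8 genes and for 13.6% of all loci. Grouped by genotype entry, the median of the 8 was 0.03, 0 met the criterion and 0 had an unadjusted p-value under 0.05, where the shares of all loci were 0.463% and 1.31%. The titled groups overlapped for every one of the 8 genes, whereas 7.41% of all loci had groups that did not overlap, 3.69% with the lower values in NPRC-/-ApoE-/-. By genotype entry the groups of all 8 genes overlapped too, and 1.2% of all loci had separate groups.

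**Figure D1:**
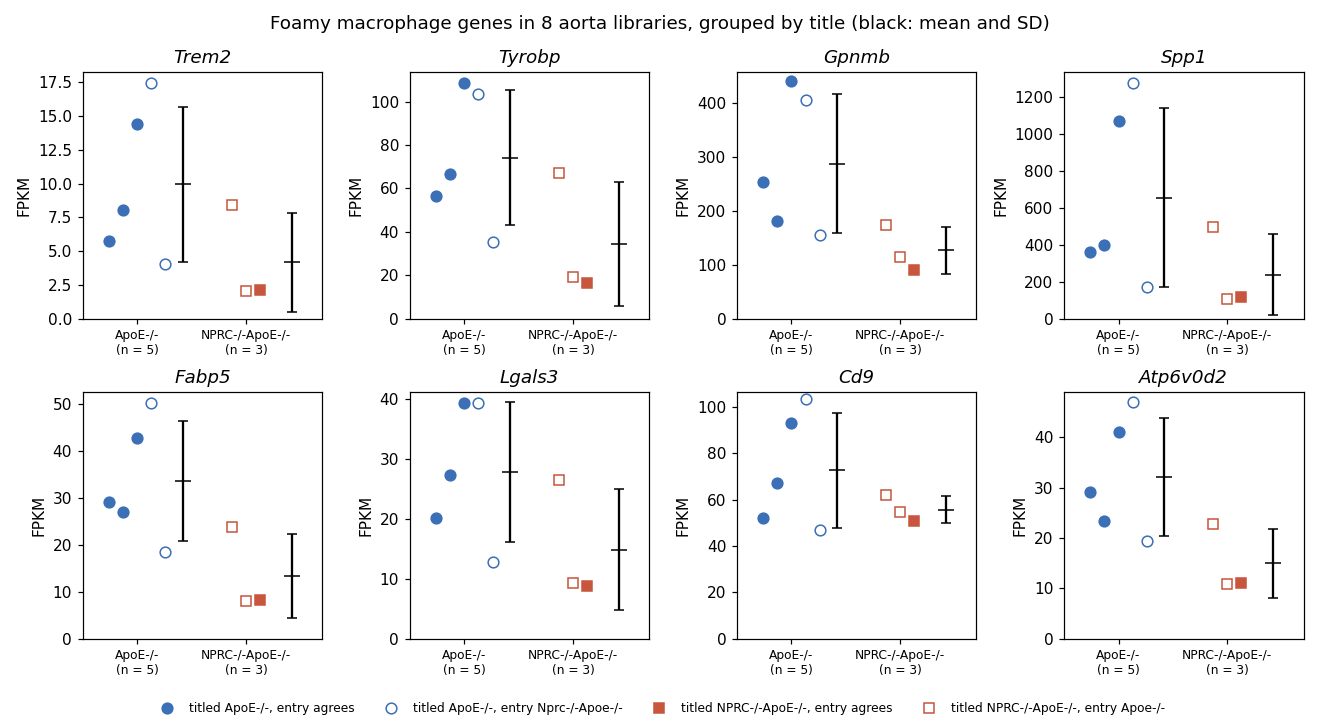
Each panel plots the FPKM of 1 gene in the 8 libraries, in order of replicate number within the titled groups, with the mean and SD in black and open symbols for libraries whose genotype entry contradicts the title. ApoE-/- 3 and ApoE-/- 4 were the highest libraries in every panel, and NPRC-/-ApoE-/- 1 lay among the ApoE-/- libraries.

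The receptor and its adaptor were described first. Trem2 (ENSMUSG00000023992) lies on the plus strand of chromosome 17, and its assembled locus ran from 48346401 to 48359319 in GRCm38, 5172 bases past the end of the gene in the GENCODE M21 annotation. Tyrobp (ENSMUSG00000030579) occupies 30413760 to 30417582 on the plus strand of chromosome 7. Its neighbour Hcst, which encodes the related adaptor DAP10, ends close by on the opposite strand and had a locus of its own. Whether the counting used strand is not given in the sources used here.

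The start of Trem2 is shown because 2 of the 4 searched motifs fell into it. The RefSeq window of 250 bases before to 50 bases after the start, chr17:48346151-48346450 on the plus strand of GRCm38.p6, is printed with motif matches in capitals.
Trem2 promoter: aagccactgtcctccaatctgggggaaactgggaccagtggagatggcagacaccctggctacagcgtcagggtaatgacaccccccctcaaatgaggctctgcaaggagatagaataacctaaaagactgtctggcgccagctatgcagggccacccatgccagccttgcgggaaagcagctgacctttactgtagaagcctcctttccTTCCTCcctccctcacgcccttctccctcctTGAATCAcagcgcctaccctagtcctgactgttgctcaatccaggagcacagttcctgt
The first capitals are GAGGAA, the core bound by the myeloid factor PU.1, read on the opposite strand and located 40 to 35 bases before the start. The second are a TGANTCA match, the AP-1 motif, 9 to 3 bases before it.

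Trem2 was at 5.75, 8.07, 14.4, 17.4 and 4.04 FPKM in ApoE-/- 1 to 5 and at 8.42, 2.02 and 2.10 FPKM in NPRC-/-ApoE-/- 1 to 3. The first NPRC-/-ApoE-/- library exceeded 3 of the 5 ApoE-/- libraries, and the other two were below all of them. NPRC-/-ApoE-/- minus ApoE-/- came to -1.28 ± 0.65 on the log2 scale (fit and standard error, edgeR, adjusted p = 0.42), and the unadjusted p was 0.0813. An exact permutation test (two-sided) between the 5 and the 3 libraries gave p = 0.143, where 0.036 is the smallest value possible. Without NPRC-/-ApoE-/- 1 the change was -2.26 and met the criterion (unadjusted p = 0.00844), as it did without ApoE-/- 5 (-1.49, unadjusted p = 0.0407). By genotype entry it was 0.06 ± 0.75.

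Tyrobp was expressed at 56.7, 66.8, 108.6, 103.7 and 35.5 FPKM in ApoE-/- 1 to 5 and at 67.3, 19.2 and 16.6 FPKM in NPRC-/-ApoE-/- 1 to 3. The order of the libraries was close to that of Trem2. Its change was -1.14 ± 0.55 (adjusted p = 0.40 from edgeR, exact permutation p = 0.143). Leaving out NPRC-/-ApoE-/- 1 gave -2.04 (unadjusted p = 0.00352) and leaving out ApoE-/- 5 gave -1.33 (unadjusted p = 0.0335), both within the criterion. The counts of receptor and adaptor moved together. The ratio of Trem2 to Tyrobp was 0.96 to 1.59 over the 8 libraries, while Trem2 itself spanned 9.11-fold and Tyrobp 6.58-fold in CPM, the count scaled to library size.

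The surface proteins of the set are GPNMB, a heavily glycosylated transmembrane protein of lysosome-rich cells, and CD9, a tetraspanin that organises membrane proteins and is made by many cell types. Gpnmb (ENSMUSG00000029816) lies on the plus strand of chromosome 6 from 49036546 to 49070929, and Cd9 (ENSMUSG00000030342) from 125460266 to 125494791 on the minus strand of that chromosome. The Gpnmb window, chr6:49036268-49036567 on the plus strand, is shown because it held an AP-1 match, in capitals. The match lies 8 to 14 bases after the first transcribed base in RefSeq. Both lie before the first base of the Gpnmb locus given above.
Gpnmb promoter: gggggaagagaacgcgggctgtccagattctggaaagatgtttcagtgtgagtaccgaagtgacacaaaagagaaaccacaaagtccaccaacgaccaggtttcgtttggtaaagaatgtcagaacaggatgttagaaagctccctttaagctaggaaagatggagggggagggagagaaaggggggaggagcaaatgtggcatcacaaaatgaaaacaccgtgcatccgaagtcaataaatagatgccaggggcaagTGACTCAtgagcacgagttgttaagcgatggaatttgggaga
The Cd9 window held none of the 4 motifs.

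Gpnmb was abundant, with 253.4, 181.6, 439.7, 405.6 and 155.6 FPKM in ApoE-/- 1 to 5 and 174.4, 114.6 and 90.1 FPKM in NPRC-/-ApoE-/- 1 to 3. Only ApoE-/- 5 lay below the highest NPRC-/-ApoE-/- library. Its change was -1.20 ± 0.44 (unadjusted p = 0.0228, adjusted p = 0.32 from edgeR), and the exact permutation test gave p = 0.071. The criterion was not met without NPRC-/-ApoE-/- 2 (-1.11, unadjusted p = 0.072), without NPRC-/-ApoE-/- 3 (-1.02, unadjusted p = 0.0825) or without ApoE-/- 3 (-0.95, unadjusted p = 0.0453). By genotype entry the change was -0.08 ± 0.58.

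Cd9 was the member with the smallest change. It was at 52.1, 67.3, 93.1, 103.6 and 46.8 FPKM in ApoE-/- 1 to 5 and at 62.0, 54.5 and 50.6 FPKM in NPRC-/-ApoE-/- 1 to 3. The 3 NPRC-/-ApoE-/- values lay within the range of the ApoE-/- values. The change was -0.39 ± 0.31 (adjusted p = 0.59 from edgeR, exact permutation p = 0.571). Over the 8 libraries Cd9 spanned 2.48-fold in CPM, against 4.54-fold to 12.9-fold for the other 7 genes.

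The secreted members are osteopontin, the integrin and CD44 ligand encoded by Spp1, and galectin-3, the glycan-binding lectin encoded by Lgals3. The Spp1 locus (ENSMUSG00000029304) ran from 104434612 to 104441050 on the plus strand of chromosome 5. It shared its counts with Gm42793, an annotated gene that overlaps it, and its first base lay at -506 relative to the annotated start. Lgals3 (ENSMUSG00000050335) lay on the plus strand of chromosome 14 from 47367751 to 47386088. The first of the pair of Spp1 windows, chr5:104434861-104435160 on the plus strand, is shown because it held the PU.1 core GAGGAA, 113 to 108 bases before the start, in capitals.
Spp1 promoter: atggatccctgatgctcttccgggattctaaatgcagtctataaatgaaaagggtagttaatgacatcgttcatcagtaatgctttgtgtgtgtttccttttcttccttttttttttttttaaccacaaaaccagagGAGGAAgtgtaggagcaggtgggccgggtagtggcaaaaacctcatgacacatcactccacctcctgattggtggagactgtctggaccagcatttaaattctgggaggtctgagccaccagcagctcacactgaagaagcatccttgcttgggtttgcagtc
The other Spp1 window and the Lgals3 window held none of the 4 motifs.

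Spp1 was at 359.9, 400.1, 1071, 1275 and 171.3 FPKM in ApoE-/- 1 to 5 and at 494.5, 105.1 and 117.2 FPKM in NPRC-/-ApoE-/- 1 to 3. It had the widest range of the 8 genes, 12.9-fold in CPM between ApoE-/- 4 and NPRC-/-ApoE-/- 2. NPRC-/-ApoE-/- 1 exceeded 3 of the 5 ApoE-/- libraries. The change was the largest in size of the 8 but also the least precise, -1.50 ± 0.80 (unadjusted p = 0.0933, adjusted p = 0.43 from edgeR), with an exact permutation p of 0.179. The criterion was met without NPRC-/-ApoE-/- 1 (-2.57, unadjusted p = 0.0186) and without ApoE-/- 5 (-1.76, unadjusted p = 0.0405).

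Lgals3 was at 20.2, 27.4, 39.3, 39.3 and 12.8 FPKM in ApoE-/- 1 to 5 and at 26.6, 9.32 and 8.79 FPKM in NPRC-/-ApoE-/- 1 to 3. NPRC-/-ApoE-/- 1 stood above ApoE-/- 1 and ApoE-/- 5. The change of -0.92 ± 0.50 did not reach a fold of 2 (unadjusted p = 0.0979, adjusted p = 0.44 from edgeR, exact permutation p = 0.179). It met the criterion without NPRC-/-ApoE-/- 1 (-1.61, unadjusted p = 0.0117) and without ApoE-/- 5 (-1.12, unadjusted p = 0.0363).

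The lipid and lysosome members are Fabp5 (ENSMUSG00000027533), which encodes a cytosolic carrier of fatty acids, and Atp6v0d2 (ENSMUSG00000028238), which encodes an isoform of the d subunit in the membrane sector of the vacuolar ATPase. Fabp5 lies on the plus strand of chromosome 3 from 10012548 to 10016607, and Atp6v0d2 at 19876841 to 19922605 of chromosome 4, minus strand. Fabp5 was at 29.2, 27.1, 42.9, 50.4 and 18.4 FPKM in ApoE-/- 1 to 5 and at 23.8, 7.98 and 8.32 FPKM in NPRC-/-ApoE-/- 1 to 3. Only ApoE-/- 5 fell within the NPRC-/-ApoE-/- range. The change was -1.35 ± 0.47 (unadjusted p = 0.019, adjusted p = 0.31 from edgeR, exact permutation p = 0.071). The unadjusted p was 0.0718 without NPRC-/-ApoE-/- 2 and 0.0733 without NPRC-/-ApoE-/- 3.

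Atp6v0d2 showed the same order of libraries, with 29.1, 23.5, 41.1, 47.0 and 19.5 FPKM in ApoE-/- 1 to 5 and 22.8, 10.9 and 11.2 FPKM in NPRC-/-ApoE-/- 1 to 3. Again ApoE-/- 5 was the 1 ApoE-/- library below the highest NPRC-/-ApoE-/- library. Its change was -1.11 ± 0.39 (unadjusted p = 0.0188, adjusted p = 0.31 from edgeR, exact permutation p = 0.071). The change was below 2-fold without ApoE-/- 3 (-0.96) or ApoE-/- 4 (-0.89), and without NPRC-/-ApoE-/- 2 or 3 the unadjusted p was 0.0735 and 0.0701.

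The 4 motifs were searched on both strands in the 6 RefSeq windows of 5 members (Trem2, Gpnmb, Spp1 with 2 windows, Lgals3 and Cd9), and Tyrobp, Fabp5 and Atp6v0d2 had no entry. The E-box CACGTG, the core of CLEAR elements of MITF and TFE factors, was found in 0 of the 6 windows. It was in 7.15% of all 32851 windows. The M-box form TCATGTG was in 0 of 6 and in 3.77% of all windows. GAGGAA was in 2 of 6 and 28.3% of all windows, and TGANTCA in 2 of 6 and 7.81%. No 2 matches overlapped in the printed windows.

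Levels can be set against each other per length only with care. By median FPKM over the 8 libraries the order was Spp1 (380 FPKM), Gpnmb (178 FPKM), Tyrobp (61.7 FPKM), Cd9 (58.2 FPKM), Fabp5 (25.4 FPKM), Lgals3 (23.4 FPKM), Atp6v0d2 (23.1 FPKM) and Trem2 (6.91 FPKM). Each pair of neighbours in this order overlapped in range over the libraries. The deposited FPKM rests on assembled transcripts. The length implied by count and FPKM together was 9.0 times the longest annotated coding transcript for Lgals3, 6.96 times for Trem2 and 4.34 times for Fabp5, against a median of 1.9 times over 10785 loci. With the counts divided instead by the longest annotated coding transcript, the median level was 836 CPM per kilobase for Spp1, 375 CPM per kilobase for Gpnmb and 209 CPM per kilobase for Lgals3. The same measure gave 125 CPM per kilobase for Cd9, 110 for Fabp5, 81.4 for Tyrobp, 47.3 for Trem2 and 29.6 for Atp6v0d2. Spp1 and Gpnmb led under both measures, whereas Lgals3 moved from the sixth place to the third and Trem2 from the eighth to the seventh. Fold changes between libraries were computed on counts and do not use these lengths.

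**Figure D2:**
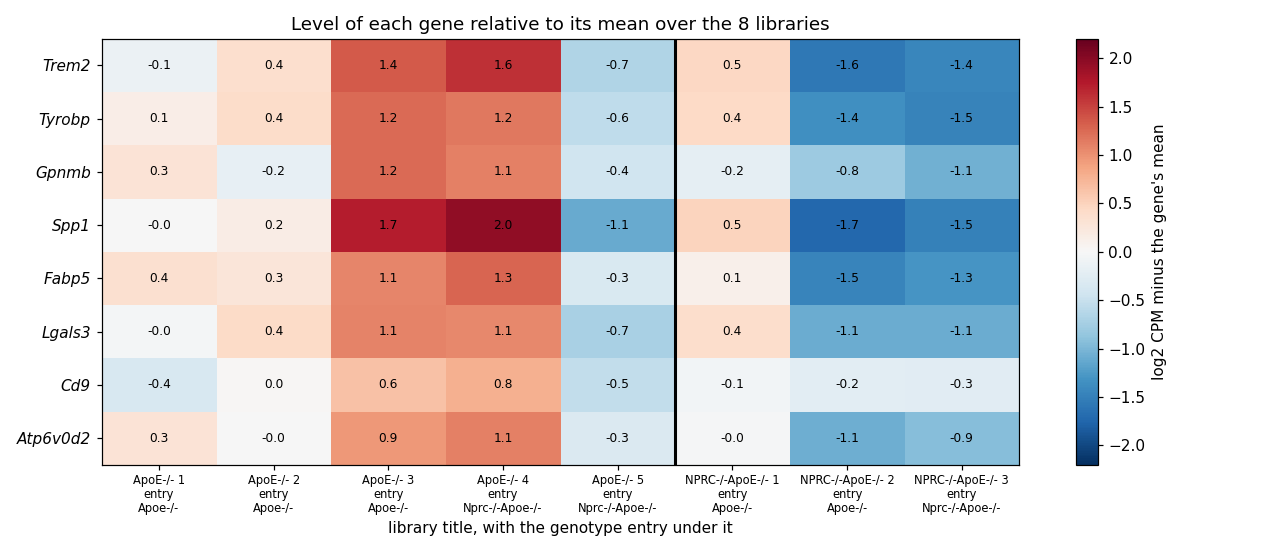
Rows are the 8 genes and columns the 8 libraries in order of title, with the genotype entry below each. Colour and number give log2 CPM minus the mean of the gene. ApoE-/- 3 and 4 were above the mean and ApoE-/- 5 and NPRC-/-ApoE-/- 2 and 3 below it for all 8 genes, with Cd9 spanning the narrowest range.

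The 8 genes ranked the libraries alike. ApoE-/- 3 or ApoE-/- 4 was highest for every gene, with ApoE-/- 4 first for 5 genes and ApoE-/- 3 first for 3. For 7 genes ApoE-/- 5 was the sixth of the 8 libraries and NPRC-/-ApoE-/- 2 and 3 were the 2 lowest. Cd9 was the exception, with ApoE-/- 5 lowest. Over the 8 libraries the Pearson correlation of log2 CPM between genes had a median r of 0.95 over 28 pairs (range 0.73 to 0.99) and a median Spearman rho of 0.90 (range 0.62 to 1.00). Leaving out the 2 libraries farthest from the median, NPRC-/-ApoE-/- 2 and 3, gave a median r of 0.94. The 21 pairs without Cd9 had r of at least 0.90, and the pairs with Cd9 had r of 0.73 to 0.87. Without those 2 libraries the pairs with Cd9 ranged from 0.87 (Gpnmb) to 0.99 (Trem2), and all 28 pairs from 0.82 to 0.99. These values describe 8 libraries that share the 2 titled groups and the same tissue, and are given without a test.

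**Figure D3:**
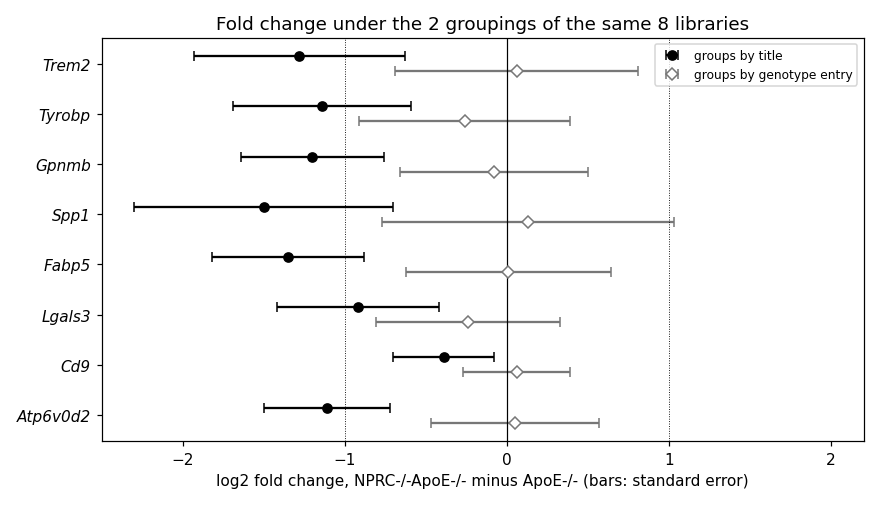
Points give the fitted log2 fold change of each gene, NPRC-/-ApoE-/- minus ApoE-/-, and bars its standard error, with filled circles for groups by title and open diamonds for groups by genotype entry. Dotted lines mark a fold of 2. All 8 circles lie below 0 (-1.50 to -0.39), whereas the diamonds lie around 0 (-0.26 to 0.13).

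The grouping decided the direction. By genotype entry 3 genes had lower and 5 higher fitted levels, from -0.26 for Tyrobp to 0.13 for Spp1, each with a standard error above its size. ApoE-/- 4, the library with the highest level for 5 genes, counts as Nprc-/-Apoe-/- by entry. Without ApoE-/- 4, which left only ApoE-/- 5 and NPRC-/-ApoE-/- 3 in that group, the median by entry was -1.08. In that fit 1 gene, Lgals3, met the criterion, and the share of all loci is not given here. With any other library left out instead, the median by entry lay between -0.20 and 0.35, and 0 genes met the criterion. In the 4 libraries with no conflict between title and entry (ApoE-/- 1, 2 and 3 and NPRC-/-ApoE-/- 3), the difference was -2.11 for Spp1, -2.07 for Tyrobp, -1.97 for Trem2 and -0.36 for Cd9, without a test since 1 library stood for NPRC-/-ApoE-/-.

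**Figure D4:**
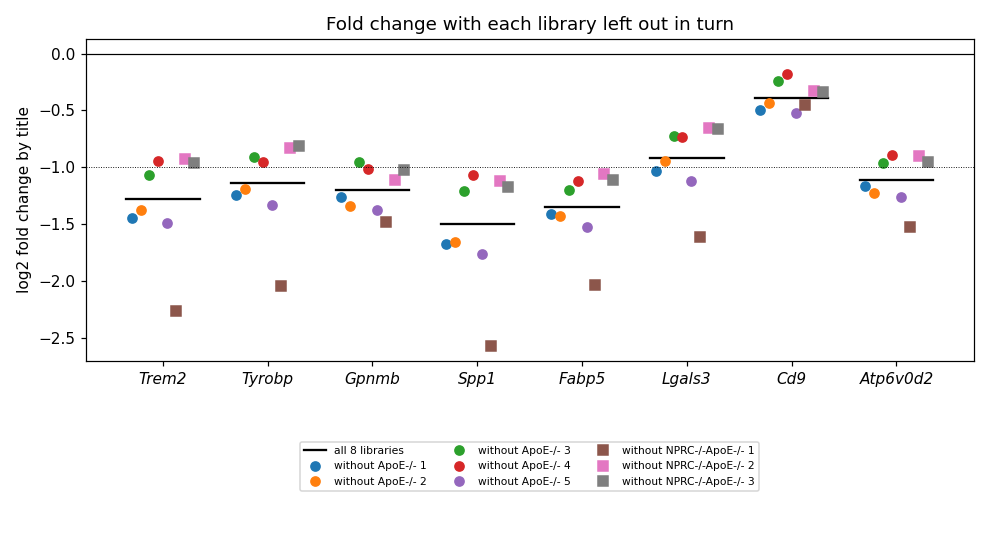
The black line of each gene gives its log2 fold change by title with all 8 libraries, and the points give it with 1 library left out (circles for ApoE-/-, squares for NPRC-/-ApoE-/-). Every point lies below 0, and the lowest for 7 genes is that without NPRC-/-ApoE-/- 1.

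Single libraries also decided the calls by title. The number of genes that met the criterion was 7 without NPRC-/-ApoE-/- 1 and 7 without ApoE-/- 5, 2 without ApoE-/- 4, 1 without ApoE-/- 3, and 0 without NPRC-/-ApoE-/- 2 or without NPRC-/-ApoE-/- 3. The number of all loci that met it moved in parallel, with 1635 and 1132 in the first pair of fits, 537 and 535 without ApoE-/- 4 and ApoE-/- 3, and 404 and 403 without NPRC-/-ApoE-/- 2 and 3, against 712 with all libraries. The median change stayed between -1.82 and -0.91 over these fits, and 0 genes had an adjusted p-value under 0.05 in any of them. Of other tests on all 8 libraries, DESeq2 gave 5 genes within the criterion and limma-voom with sample quality weights 7, among 798 and 1491 of all loci. In both, 0 genes had an adjusted p-value under 0.05, with the smallest at 0.0624 and 0.0564, both for Fabp5, while 3.14% and 0.634% of all loci did.

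The general macrophage markers moved in the same direction. Of 10 core markers that are not among the 8 genes, all 10 had lower fitted levels by title, with a median of -1.19, and 6 met the criterion. Aif1 had -1.84 ± 0.51 (adjusted p = 0.26 from edgeR), at 0.9 to 2.33 FPKM in ApoE-/- and 0.16 to 0.78 FPKM in NPRC-/-ApoE-/-. Aif1 thus lay near the filter on low values and passed it only through the ApoE-/- libraries. Mertk, named after its value was seen, had -0.02 ± 0.19. The complement genes C1qc and C1qb had -1.47 ± 0.57 and -1.45 ± 0.57. Fcgr1, the high-affinity IgG receptor, had -1.46 ± 0.53. The mean level of the 10 markers was 6.38, 6.70, 7.35, 7.19 and 6.01 log2 CPM in ApoE-/- 1 to 5 and 6.27, 5.33 and 5.22 log2 CPM in NPRC-/-ApoE-/- 1 to 3. Its group means differed by -1.12 (exact permutation p = 0.071), with NPRC-/-ApoE-/- 1 again among the ApoE-/- libraries. Over the 8 libraries the 8 genes correlated with this mean level at r of 0.94 (Gpnmb) to 0.98 (Tyrobp and Fabp5), except Cd9 at 0.78. The order of libraries that the genes shared was thus not particular to them. By genotype entry 0 of the 10 met the criterion, with a median of -0.20. The number within the criterion by title was 2 without NPRC-/-ApoE-/- 2 and at most 8 without another library.

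Each of the 8 genes was therefore also set against these markers within the same library, as log2 CPM of the gene minus the mean log2 CPM of the 10 markers. On this scale the difference between titled groups was 0.02 for Gpnmb, 0.03 for Atp6v0d2, 0.16 for Lgals3, -0.16 for Tyrobp, -0.24 for Trem2, -0.30 for Fabp5 and -0.33 for Spp1, with overlapping groups for all 7. The sign and size depended on the markers. With Adgre1, Cd68 and Csf1r alone the differences were all negative, -0.31 for Gpnmb, -0.31 for Atp6v0d2, -0.18 for Lgals3, -0.49 for Tyrobp, -0.58 for Trem2, -0.63 for Fabp5 and -0.67 for Spp1. With the 8 markers whose locus holds 1 gene name they were 0.25 for Gpnmb, 0.26 for Atp6v0d2, 0.39 for Lgals3, 0.07 for Tyrobp, -0.01 for Trem2, -0.07 for Fabp5 and -0.11 for Spp1. The titled groups of these 7 genes overlapped under all of these marker sets, and the Cd68 locus also carries the names of Senp3, Eif4a1, Tnfsf12, Tnfsf13 and others. With the 10 markers, Gpnmb lay 3.76 to 4.55 above the markers in ApoE-/- and 4.15 to 4.49 above them in NPRC-/-ApoE-/-. The range of Atp6v0d2 over the 8 libraries was 0.63 against 2.2 for its level. Spp1 kept the widest range, 1.88, from 3.11 in ApoE-/- 5 to 4.99 in ApoE-/- 4.

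Cd9 differed from the others in this respect. It lay 0.67, 0.74, 0.70, 0.99 and 0.86 above the markers in ApoE-/- 1 to 5 and 1.07, 1.84 and 1.93 above them in NPRC-/-ApoE-/- 1 to 3, so that the titled groups did not overlap, with a difference of 0.82. Relative to the same markers, 19.3% of all loci had titled groups that did not overlap. Of all loci, 19.2% were higher in all 3 NPRC-/-ApoE-/- libraries than in any ApoE-/- library, and 0.141% were lower in all 3, so 1 gene of 8 is near the background. With Adgre1, Cd68 and Csf1r as the markers the Cd9 groups overlapped, with a difference of 0.49, and with the 8 single-name markers they did not, with a difference of 1.05.

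**Figure D5:**
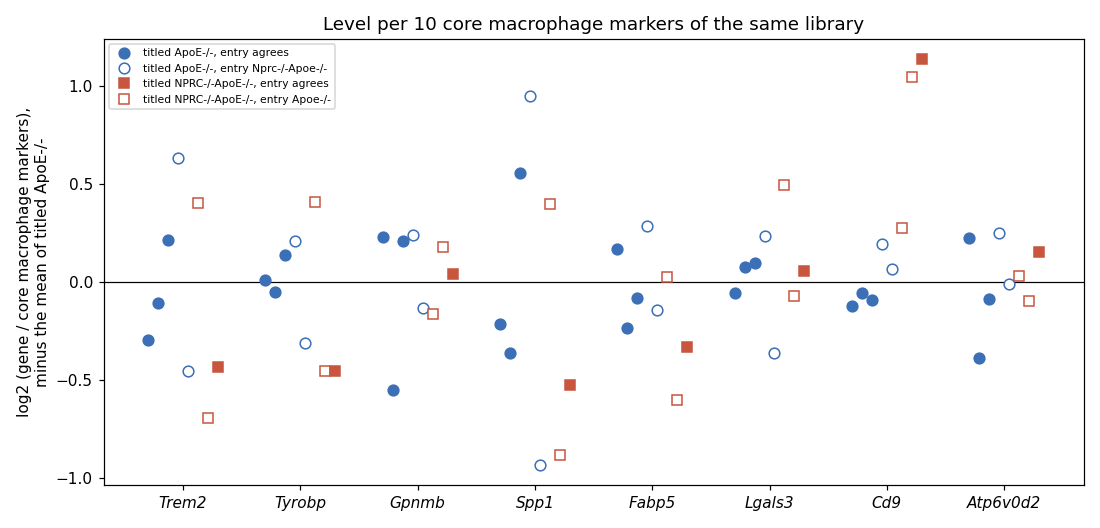
Each point is the log2 level of a gene relative to 10 core macrophage markers of the same library, set to 0 at the mean of the libraries titled ApoE-/- and ordered by library within each gene. Symbols are those of the plot of FPKM by library. Titled groups overlap for 7 genes, and the 3 NPRC-/-ApoE-/- points of Cd9 lie above the 5 ApoE-/- points.

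Genes that act with TREM2 and TYROBP were examined next. Of 12 signalling and shedding genes 11 were tested, all 11 with lower fitted levels by title, a median of -0.81, 6 with an unadjusted p-value under 0.05 and 2 within the criterion. These 2 were the kinase Btk (-1.29 ± 0.43, adjusted p = 0.29 from edgeR) and the exchange factor Vav1 (-1.06 ± 0.40, adjusted p = 0.32). The kinase Lyn had -0.98 ± 0.31 and the lipid phosphatase Inpp5d (SHIP1) -0.98 ± 0.32, both short of a fold of 2. The list had 0 genes within the criterion without NPRC-/-ApoE-/- 2 and 8 without NPRC-/-ApoE-/- 1, and its median by genotype entry was -0.11. Hcst, named only as the neighbour of Tyrobp, was below the filter on low values, with at most 1.32 FPKM. Of 11 other receptors of the TREM family or coupled to TYROBP, 3 passed the filter. Cd300c2 met the criterion (-1.23 ± 0.54, unadjusted p = 0.0497, adjusted p = 0.37 from edgeR), and Cd300lb (-0.95 ± 0.41) and Clec5a (-0.67 ± 0.42) did not.

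Further genes of lipid-laden macrophages were also examined. Of 24 genes, all tested, 22 had lower fitted levels, with a median of -0.88 (-0.03 by genotype entry), 16 had an unadjusted p-value under 0.05 and 8 met the criterion, all lower. The synaptogyrin gene Syngr1 had -1.46 ± 0.54, the integrin gene Itgax (CD11c) -1.26 ± 0.51, the membrane protease gene Mmp14 -1.21 ± 0.36 and the cathepsin gene Ctsb -1.10 ± 0.46 (adjusted p from 0.27 to 0.34, edgeR). Cd36, the scavenger receptor gene that fat and endothelial cells also express, was named after its value was seen, with 0.02 ± 0.28. The number within the criterion was 1 without NPRC-/-ApoE-/- 2 and 15 without NPRC-/-ApoE-/- 1.

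A list of 18 other subunit and accessory genes of the vacuolar ATPase, not all that exist, differed less by title than Atp6v0d2. In this list 17 of 18 had lower fitted levels, with a median of -0.39, and 0 met the criterion, although 4 had an unadjusted p-value under 0.05. The values were -0.97 ± 0.46 for Atp6v0c, -0.73 ± 0.30 for Tcirg1, -0.73 ± 0.29 for Atp6ap2 and -0.70 ± 0.35 for Atp6v1b2. Atp6v0d1, the paralogue of Atp6v0d2 that most cells use, was named after its value was seen, with -0.44 ± 0.26. The difference between Atp6v0d2 and these genes was not tested.

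Among 13 transcription factor genes 12 were tested, and 2 met the criterion, among them Spi1, which encodes PU.1 (-1.13 ± 0.40, adjusted p = 0.31 from edgeR). Cebpa had -0.60 ± 0.27 and Pparg 0.38 ± 0.47, and the median of the list was -0.08. Among 9 receptors and partners of osteopontin and galectin-3, 4 had lower and 5 higher fitted levels, with a median of 0.15. Lgals3bp, which encodes a secreted galectin-3 ligand, met the criterion (-1.39 ± 0.31, unadjusted p = 0.00165, adjusted p = 0.22 from edgeR), whereas the receptor genes Cd44 (-0.82 ± 0.41), Itga4 (-0.71 ± 0.21) and Itga9 (0.66 ± 0.24) did not. Of 10 relatives of FABP5 and CD9, 9 were tested and 1 met the criterion, the leukocyte tetraspanin gene Cd37 (-1.04 ± 0.37). Cd53, another leukocyte tetraspanin gene, had -1.20 ± 0.55, Cd82 -0.86 ± 0.41 and the CD9 partner gene Ptgfrn -0.71 ± 0.34. By genotype entry 0 genes of any of these lists met the criterion. With a library left out, the number within it by title was 0 to 3 for the other TREM and TYROBP-coupled receptors, 0 to 2 for the ATPase subunits, 0 to 2 for the transcription factors, 1 to 2 for the osteopontin and galectin-3 partners and 0 to 3 for the relatives of FABP5 and CD9.

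Markers of other cells of the aorta moved as well. All 10 smooth muscle markers had higher fitted levels by title, with a median of 0.73, 9 with an unadjusted p-value under 0.05 and 0 within the criterion, for example Smtn (0.99 ± 0.24) and Myh11 (0.84 ± 0.27). By genotype entry their median was 0.12. Their summed level was 1370 to 1830 FPKM in ApoE-/- and 1780 to 3040 FPKM in NPRC-/-ApoE-/-. All 8 fibroblast markers had lower fitted levels, with a median of -0.85, 0 within the criterion and a summed level of 810 to 2070 FPKM against 450 to 1170 FPKM. By genotype entry their median was -0.09. Without NPRC-/-ApoE-/- 1 the number within the criterion by title was 5 of 8 fibroblast and 5 of 10 smooth muscle markers. Lum had -1.21 ± 0.56, Col1a1 -1.02 ± 0.49, Dpt -0.86 ± 0.21 and Dcn -0.84 ± 0.30. Endothelial markers had a median of -0.07 and a summed level of 97.2 to 108 FPKM against 91.8 to 103 FPKM. The part of these cells in the levels of the 8 genes was not tested.

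Other macrophage states and immune cells were also covered. Resident macrophage markers, 7 tested of 8, had a median of 0.00, with 3 lower and 4 higher fitted levels. Of these 7, 2 had an unadjusted p-value under 0.05 and 0 met the criterion. Lyve1 had 0.47 ± 0.37, Folr2 -0.88 ± 0.31, Pf4 -0.32 ± 0.29 and Cd163 0.17 ± 0.17. Mrc1, named after its value was seen, had -0.63 ± 0.12 (unadjusted p = 0.000605, adjusted p = 0.2 from edgeR). Inflammatory markers, 5 tested of 8, had a median of -0.77 and 2 within the criterion, Il1b (-2.25 ± 0.84) and Plac8 (-1.24 ± 0.40), and Ccl3 had -0.23 ± 0.39. The number was 0 without NPRC-/-ApoE-/- 2 and 3 without NPRC-/-ApoE-/- 1. Osteoclasts also use ATP6V0D2, but of their 8 markers 4 were tested, with a median of -0.35 and 0 within the criterion. Acp5 had -0.72 ± 0.37, Mmp9 -0.31 ± 0.38 and Nfatc1 -0.20 ± 0.14, and the osteoclast gene Calcr was under 0.1 FPKM in every library. Medians were -0.12 for white adipocyte, 0.34 for brown fat, -0.36 for neutrophil and -0.51 for chondrocyte-like markers. T and B cell markers (2 tested of 9) had -1.33, and mesothelial and epithelial markers (1 tested of 6) had -0.48. Each of these lists had 0 genes within the criterion. Brown fat markers summed to 125 to 593 FPKM in ApoE-/- and 352 to 559 FPKM in NPRC-/-ApoE-/-. White adipocyte markers summed to 74.2 to 341 FPKM and 98.7 to 233 FPKM. The brown fat gene Ucp1 was lowest in ApoE-/- 3 and ApoE-/- 4, at 71.8 and 142.15 FPKM. The part of fat in the levels of the 8 genes was not tested.

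The genes most like the set were found by the correlation of log2 CPM over the 8 libraries with the mean of the 8 genes' standardised levels. Among the closest 10 of 17181 single-gene loci were Capg, Cpd, Fuca2, Gla, Hk3, Cyba, C3ar1, Lgmn and Ctsa, with r of 0.994 to 0.998 over 8 libraries. Capg encodes an actin-capping protein of macrophages, Cyba a subunit of the NADPH oxidase, and C3ar1 a complement receptor. Fuca2, Gla, Lgmn and Ctsa encode lysosomal or secreted hydrolases. The fitted log2 fold changes by title were -1.05 for Lgmn, -1.04 for Cyba, -1.03 for Gla and -1.01 for Hk3. They were -0.92 for Capg, -0.89 for C3ar1, -0.84 for Fuca2, -0.63 for Ctsa and -0.44 for Cpd. By genotype entry the changes of these genes lay between -0.13 and 0.03. The genes were chosen for following the set over the same 8 libraries, so the direction of their changes is no separate result. Among the 8 genes themselves r with this mean, which includes them, was 0.994 for Spp1, 0.990 for Trem2 and at least 0.960 for 5 others, but 0.858 for Cd9, which 9.81% of the ranked loci exceeded.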

How the data were processed

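Whole-aorta poly(A) RNA of 8 libraries was analysed. The authors removed low-quality bases (cutadapt 1.9 and FastQC per the submitters' processing notes), mapped reads with HISAT2 to GRCm38 and assembled loci with StringTie. They deposited raw read counts per locus, not normalized, and FPKM values, scaled by the authors to transcript length and mapped fragments. How counts were derived and whether strand was used are not given in the sources used here. Every column of per-sample values was matched to a library.

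Of 48607 loci, the 20506 that reached 1 FPKM in 3 or more libraries were kept. Their deposited counts were fitted in edgeR 4.0.16 under R 4.3.3 (TMM, quasi-likelihood test, Benjamini-Hochberg adjustment over all loci tested). Positive fold changes mean higher in NPRC-/-ApoE-/-. Log2 CPM used a prior count of 2. Group differences of single values used two-sided exact permutation tests, with a smallest p of 0.036. Alternatives used DESeq2 1.42.0, limma 3.58.1 (pseudocounts 1 and 0.1), other scalings and filters, a replicate block, the genotype entry, and each library left out. The depth was 62969165 to 86693276 counts per library, and the biological coefficient of variation of 0.327 limits the precision with 5 and 3 libraries. Counts were simulated for the comparison by title over 20506 loci, each with that same coefficient of variation. At an adjusted p-value under 0.05, the test called 22 of 100 loci changed by 1 log2 unit and 93 of 100 changed by 2 log2 units. The 8 genes differed in precision, with standard errors from 0.31 (Cd9) to 0.80 (Spp1). These simulated shares therefore do not give the chance of calling any 1 of them.

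The 8 genes and all lists were chosen with earlier results of these data known. Named from each list were up to 4 single-gene loci with a mean of at least 1 FPKM and the largest change by title, and the 10 loci most like the mean of the 8 genes. Genes outside this rule are marked as such, and 2 genes that it names are not reported here. Promoter windows were from RefSeq (GRCm38.p6), and gene positions from GENCODE M21 (GRCm38).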

Additional observations from a re-analysis of the deposited data

Results flagged for a closer look

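The table holds a second locus under the name Cd9, outside the comparisons above, at 125457422 to 125460162 of chromosome 6, minus strand, just past the annotated end of the gene. Its level ranged from 1.09 to 1.24 FPKM over the ApoE-/- libraries by title and from 1.55 to 1.80 FPKM over the NPRC-/-ApoE-/- libraries, so that all 3 of the latter were above all 5 of the former, which drew attention to it. The fitted log2 fold change was 0.56 ± 0.15 (adjusted p = 0.26 from edgeR), opposite in sign to that of the Cd9 gene locus, and by genotype entry it was -0.05. Of all loci tested, 7.41% had titled groups that did not overlap. The other Gpnmb loci, at 49059019 to 49059349 and at 49060582 to 49065264 of chromosome 6, had -0.94 ± 0.46 (unadjusted p = 0.0732, edgeR) and -0.75 ± 0.32 (unadjusted p = 0.0411), with overlapping titled groups. Among 34 sets of 5 libraries, 0 had a library far from the others, where chance gives 1.7. The 3 libraries titled NPRC-/-ApoE-/- did not form such a set. The check therefore says nothing of a library that stands apart among those 3.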

How the results depend on the processing

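The number of genes within the criterion by title was 3 under other scalings and filters and with the rows of a symbol summed, 5 with DESeq2, 4 and 5 with limma on log2(FPKM + 1) and log2(FPKM + 0.1), 7 with limma-voom and quality weights, 0 by genotype entry, and 0 to 7 with each library left out. The median of the 8 genes reversed to 0.03 by genotype entry, where Trem2 had 0.06, Spp1 0.13, Fabp5 0.01, Cd9 0.06 and Atp6v0d2 0.05, and it was -1.82 to -0.91 with a library left out. Why the labels conflict was not tested. Genes of the other lists within the criterion numbered 23 by title, 0 by genotype entry and 5 to 60 with a library left out (5 without NPRC-/-ApoE-/- 2 or 3, 10 without ApoE-/- 3 or 4, 41 without ApoE-/- 5 and 60 without NPRC-/-ApoE-/- 1). Over all loci the criterion was met by 712 by title and 95 by genotype entry. It was met by 114 when the mean had to reach 5 FPKM, 1738 with filterByExpr and 2287 without a filter. Limma on log2(FPKM + 1) gave 175, limma on log2(FPKM + 0.1) 662, DESeq2 798 and quality weights 1491. With a library left out, 403 to 1635 met it. By genotype entry, leaving out a library gave 0 to 1 of the 8 genes within the criterion. Relative to macrophage markers, the number of genes with separate titled groups was 1 with 10 or 8 markers, and 0 with Adgre1, Cd68 and Csf1r alone or by genotype entry. In the fits by title with DESeq2, limma, limma-voom, other scalings and filters, the block or a library left out, and in the fit by genotype entry with all libraries, 0 of the 8 genes had an adjusted p-value under 0.05. With the replicate number as a block in the libraries numbered 1 to 3, 2 genes met the criterion (3 without the block). Of all loci, 800 met it with the block and 917 without the block. The median of the 8 genes was -1.28 with the block and -1.19 without the block. Same-numbered libraries did not deviate together (r of -0.314, -0.113 and 0.007). These correlations cannot show whether the mice were paired, and the sources used here give no pairing of libraries. Comparisons by genotype entry with a library left out, log2(FPKM + 1) in the permutation test, the 8 markers with their own locus, and leaving a library out for the lists were chosen after seeing the data.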
